A study of Mus musculus with 8 samples.

Results

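Neuropeptides are made as precursor proteins, cut and modified inside dense-core vesicles, released with the granin proteins of those vesicles and read by G protein-coupled receptors on nearby cells. A group of 44 genes of this system was taken from the forebrain arrays of the study by gene name, out of 37074 gene names with a probe. The group held 21 peptide precursors, the binding protein Crhbp, 5 granins, 2 processing enzymes and 15 peptide receptors, and its rule used gene names and no measured value, although earlier results of these data were known when it was drawn up. Tissue of 4 male B6 mice (C57BL/6J, 4 months old) and 4 male BTBR/R mice (BTBRTF/ArtRbrc, 4 months old except replicate 1, which was 6 months old) was dissected to hold the cerebral cortex with the striatum, and its RNA was labeled with Cy3 and hybridized to Agilent arrays, with 1 mouse per array. B6 is a common inbred laboratory strain, and BTBR/R is a subline of the inbred BTBR strain, which is used as a model of autism spectrum disorder. The mice received no treatment named in the labels. Per the paper, B6 mice were bought from Japan SLC and BTBR/R mice came from the RIKEN BioResource Research Center. Both were housed at Tokyo University of Science, and BTBR/R mice also at The University of Tokyo. Each difference below is between strains as a whole, with source and housing included, and not between alleles of a gene. Signals are given as scaled signals, log2 processed signals after subtraction of each array's 75th percentile, and changes as BTBR/R minus B6 with the standard error (SE) from limma.

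The 44 genes had 69 probes, and each gene was represented by its probe with the highest mean scaled signal over the 8 arrays. That probe was well above background, here called detected, on all 8 arrays for 42 of the 44 genes, Pmch and Galr1 being the exceptions. In the numbers that end the array names, read here as slide column and row, all B6 arrays had column 1 and all BTBR/R arrays column 2. Whatever position that number stands for, its effect and that of strain cannot be told apart. Signals were detected down to 14.5 to 17.8 in B6 mice but only down to 36.1 to 47.1 in BTBR/R mice, so that a dim transcript could be detected in B6 mice alone. Markers of cortical excitatory neurons, striatal projection neurons and GABAergic neurons were detected on every array and were in place for the labeled tissue. The mean scaled signal of the 7 striatal markers was 2.29 to 2.46 in B6 mice and 2.25 to 2.46 in BTBR/R mice, and that of the 6 cortical markers was 1.47 to 1.77 and 1.61 to 1.81.

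The changes ran from −1.07 to 2.03 on the log2 scale, and the genes at both ends stood well beyond the rest. Cort, the precursor of cortistatin, was lower in BTBR/R mice. Pam, the enzyme that amidates the C-terminus of many peptides, was higher on its probe with the most signal over the 8 arrays. That probe was the brightest through the BTBR/R mice (mean 1.53 beside −0.49 in B6 mice). In B6 mice alone the brightest Pam probe was A_55_P2733797 (mean −0.007), which had a change of −0.50. Both the direction and the call of Pam thus depended on the choice of probe. Cort and Pam were the 2 genes called, that is, past both an adjusted p of 0.05 and a 2-fold change. They make 4.76% of the 42 genes detected on all 8 arrays, beside 2.22% of all 18850 genes detected on all 8 arrays (1.04% higher and 1.18% lower). At an adjusted p below 0.05 alone, 16 of the 42 genes passed (38.1%), beside 28.4% of the 18850 genes. Among the 16, 12 were higher in BTBR/R mice, or 28.6% of the 42 beside 13.9% of all genes. The other 4 were lower, or 9.52% beside 14.5%. Under scaling by the spike-in probes the split was 14 higher and 2 lower. That scaling raised the median change of probes detected on all 8 arrays from 0.0015 to 0.11. Of all 56605 probes, 18642 were then higher and 3694 lower past the adjusted p, beside 15685 and 6550 in the main setting. The median change over the 42 genes was 0.0070 on the log2 scale beside 0.0028 over the 18850 genes, and the median size of the change was 0.17 beside 0.12. With Pmch and Galr1 included, the median change was −0.0076. By role, 7 of 15 receptors passed the test (6 higher, 1 lower), as did 6 of 21 precursors (4 higher, 2 lower), Crhbp, Scg3 of the 5 granins and Pam of the 2 enzymes. RNA came from whole tissue, so fewer cells of a type and less RNA per cell cannot be told apart. Whether the strains differ in sequence under a probe was not tested.

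**Figure D1:**
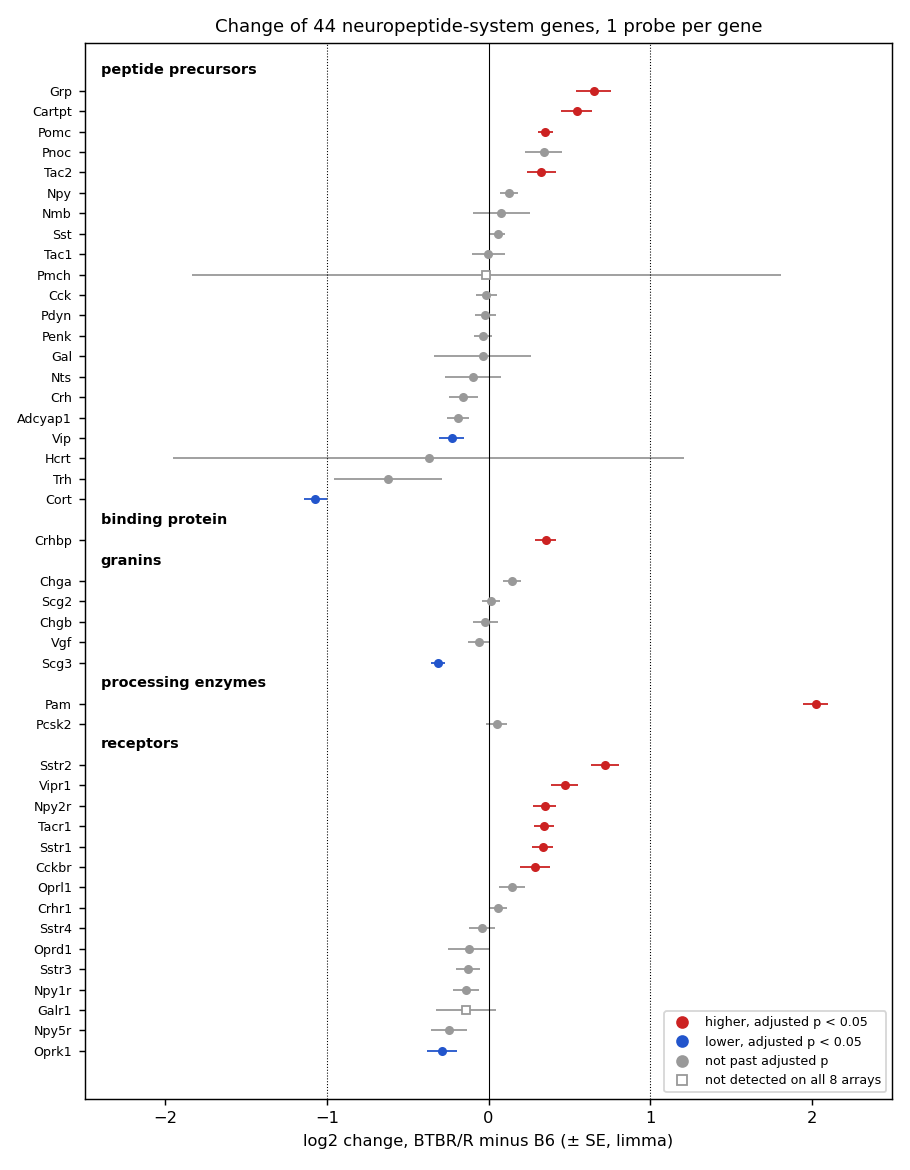
Log2 change in scaled signal (x axis, BTBR/R minus B6, ± SE from limma, 4 mice of each strain) of the 44 genes by role, with 1 probe per gene. Pam at 2.03 and Cort at −1.07 lie beyond the dotted lines at a 2-fold change, and Pmch and Hcrt have the widest errors.

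Cortistatin and somatostatin are related peptides of cortical interneurons that act on the same receptors, and cortistatin is known for its part in sleep. Cort was measured by 1 probe at chr4:148499300-148499359 (mm9, minus strand), which starts at base 438 of its transcript. The first 30 bases of that probe are shown, since this is the precursor with the largest change past the test.
Cort probe A_55_P2167323: atagcaccctggccaccctgtgagatgcca
The scaled signal of Cort in B6 mice 1 to 4 was 2.322, 2.400, 2.319 and 2.554. In BTBR/R mice 1 to 4 it was 1.299, 1.299, 1.266 and 1.440. The lowest B6 mouse lay above the highest BTBR/R mouse, and the change was −1.07 (SE 0.07, adjusted p = 2.76e-05), or 2.10-fold lower in BTBR/R mice. Under normexp background correction the change was −0.99, and under spike-in scaling −0.96, which left it past the adjusted p but short of 2-fold.

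Sst, the precursor of somatostatin, overlapped between the strains. Its mean was 6.26 ± 0.04 (SD, n = 4) among B6 mice and 6.32 ± 0.04 among BTBR/R mice, a change of 0.06 (SE 0.04, adjusted p = 0.37). A list of 8 GABAergic neuron markers, which covers several interneuron classes and in part also striatal projection neurons, and so gives no level of the cells that make these peptides, had mean scaled signals of 1.61 to 1.86 in B6 mice and 1.69 to 1.85 in BTBR/R mice. Of these 8, 1 passed the adjusted p, with a higher signal in BTBR/R mice.

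Among the receptors shared by the 2 peptides, Sstr1 and Sstr2 were higher in BTBR/R mice, while Sstr3 and Sstr4 did not pass the test. Sstr2, a receptor that inhibits adenylate cyclase, had scaled signals of −2.67, −2.59, −2.62 and −2.52 in B6 mice. The BTBR/R mice were at −1.99, −2.01, −1.86 and −1.65. No B6 mouse reached the lowest BTBR/R mouse, and the change was 0.72 (SE 0.09, adjusted p = 0.00042), or 1.65-fold. In the RefSeq annotation (GRCm38.p6) the Sstr2 gene overlaps Slc39a11. Sstr3 changed by −0.13 (SE 0.07, adjusted p = 0.22) and Sstr4 by −0.04 (SE 0.08, adjusted p = 0.73). Sstr5, another such receptor that is not among the 44 genes, changed by 0.08 (SE 0.06, adjusted p = 0.30), and on its other probe (A_66_P131644), detected on all 8 arrays, by −0.22 (SE 0.05, adjusted p = 0.013), lower in BTBR/R mice.

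Sstr1, a receptor of the same family, had 2 probes, and both were higher in BTBR/R mice. The sequences are given to show that they lie in different stretches of the same transcript. A_66_P100777 lies at chr12:59316670-59316729 and starts at base 3515 of the transcript, of which the first 30 bases are printed. A_51_P432950 lies at chr12:59314287-59314346 and starts at base 1132 (both mm9, plus strand).
Sstr1 probe A_66_P100777: aacctggggttcgcaagttcacactgacct
Sstr1 probe A_51_P432950: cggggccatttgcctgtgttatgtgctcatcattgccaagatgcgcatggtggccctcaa
On A_66_P100777 the B6 mice were at 0.77, 0.96, 0.80 and 0.94 and the BTBR/R mice at 1.20, 1.11, 1.21 and 1.29. The strains did not overlap, and the change was 0.33 (SE 0.07, adjusted p = 0.0052), or 1.26-fold. On A_51_P432950, detected in 3 of 4 B6 mice and in all BTBR/R mice, the B6 mice were at −4.74, −4.78, −5.59 and −5.15 and the BTBR/R mice at −3.10, −2.94, −3.34 and −2.55. Since B6 replicate 3 was not well above background there, the difference is given as a bound, at least 3.90-fold higher in BTBR/R mice (adjusted p = 0.00027). A_51_P432950 lost the adjusted p in 1 of the other settings. The B6 values of this probe lay near the B6 detection limits of −5.28 to −4.98. Because the gene was singled out for the disagreement of its probes, the difference between them was not tested.

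**Figure D2:**
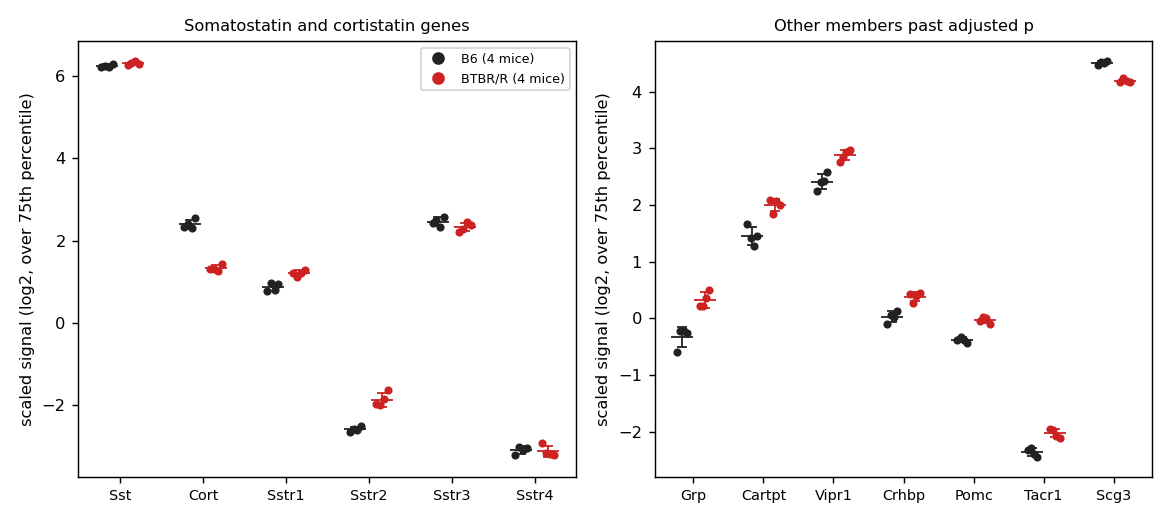
Scaled signal (y axis, log2) of each mouse for the somatostatin and cortistatin genes (left) and for 7 other genes past the adjusted p (right), with black points for B6 and red points for BTBR/R (4 mice each) and bars for mean ± SD. Cort, at 2.32 to 2.55 in B6 mice and 1.27 to 1.44 in BTBR/R mice, has the widest gap, while Sst overlaps.

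The other precursors that passed the test were Grp, Cartpt, Pomc and Tac2, which were higher in BTBR/R mice, and Vip, which was lower. Grp encodes gastrin-releasing peptide, which acts on inhibitory neurons of the cortex and amygdala. Its scaled signal was −0.60, −0.23, −0.22 and −0.26 in B6 mice and 0.21, 0.22, 0.37 and 0.50 in BTBR/R mice. All BTBR/R mice were above all B6 mice, with a change of 0.65 (SE 0.11, adjusted p = 0.0023), or 1.57-fold. In the RefSeq annotation (GRCm38.p6) Grp overlaps a long non-coding RNA gene, as do Cck, Crh, Adcyap1, Pcsk2 and Crhr1. Cartpt, the precursor of the CART peptides named for their regulation by cocaine and amphetamine in the striatum, was at 1.668, 1.414, 1.282 and 1.451 in B6 mice and at 2.085, 1.847, 2.070 and 1.997 in BTBR/R mice. Again the strains did not overlap, and the change was 0.55 (SE 0.10, adjusted p = 0.0029), or 1.46-fold.

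Pomc, the precursor of melanocortins and β-endorphin, was at −0.38, −0.32, −0.38 and −0.43 in B6 mice and −0.04, 0.03, 0.00 and −0.09 in BTBR/R mice. Its change was 0.35 (SE 0.05, adjusted p = 0.00083), with no overlap. Pomc is best known from the pituitary and the hypothalamus, so markers of both were measured. Of 5 pituitary markers, Prl, Cga and Tshb were detected on no array and Gh on 1 BTBR/R array. Lhb was detected on all 8 arrays and was higher in BTBR/R mice by 0.84 (SE 0.25, adjusted p = 0.03). The mean scaled signal of the 5 (−6.38 to −5.68 in B6 mice, −5.12 to −4.61 in BTBR/R mice) lay below the detection limits of each strain (−5.28 to −4.98 and −3.97 to −3.55) and is no measure of pituitary tissue. Of 6 hypothalamic markers, 3 were detected on all 8 arrays and 0 passed the adjusted p. The share of pituitary or hypothalamic tissue in the Pomc signal was not tested.

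Tac2, which encodes neurokinin B, was at 1.67, 1.38, 1.44 and 1.34 in B6 mice and 1.86, 1.65, 1.84 and 1.81 in BTBR/R mice. B6 replicate 1 reached into the BTBR/R range, and the change was 0.33 (SE 0.09, adjusted p = 0.022). Vip, a peptide of disinhibitory interneurons, was at 0.95, 1.15, 1.27 and 1.06 in B6 mice and 0.80, 0.91, 0.88 and 0.93 in BTBR/R mice. The strains were separated only narrowly, and the change was −0.23 (SE 0.08, adjusted p = 0.046). Vip lost the adjusted p in 13 of 21 other settings and Tac2 in 8 of 21, among them for both genes leaving out B6 replicates 2, 3 or 4 or BTBR/R replicates 1, 3 or 4 in turn. Under spike-in scaling the change of Vip was −0.12 (adjusted p = 0.34).

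The precursors of the main striatal and cortical peptides did not pass the test, at small errors. Cck, the cholecystokinin precursor of cortical neurons, changed by −0.01 (SE 0.07, adjusted p = 0.89), and its signals were 7.07 to 7.21 in B6 mice and 7.03 to 7.26 in BTBR/R mice. Penk, the enkephalin precursor of striatal neurons that project to the external pallidum, changed by −0.03 (SE 0.06, adjusted p = 0.66). Tac1, the substance P precursor of striatal neurons that project to the substantia nigra, changed by −0.0025 (SE 0.10, adjusted p = 0.99). Each of Penk and Tac1 had another probe detected on all 8 arrays, on which the changes were −0.03 and −0.05. Pdyn, the dynorphin precursor, changed by −0.02 (SE 0.07, adjusted p = 0.85), and Npy, neuropeptide Y, by 0.13 (SE 0.06, adjusted p = 0.11).

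Of the remaining precursors, Crh, Nts, Adcyap1, Nmb and Pnoc changed by −0.19 to 0.34 and did not pass the test. Adcyap1, the PACAP precursor, did not overlap between the strains (0.10, 0.11, 0.16 and 0.26 in B6 mice, −0.19, 0.03, 0.01 and 0.02 in BTBR/R mice) but stayed at an adjusted p of 0.066. Its other detected probe changed by −0.43 (SE 0.11, adjusted p = 0.016). Pnoc, the nociceptin precursor, was at 0.37, 0.07, −0.09 and −0.10 in B6 mice and 0.36, 0.53, 0.42 and 0.30 in BTBR/R mice, with an adjusted p of 0.052.

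Hcrt and Pmch, the precursors of the orexins and of melanin-concentrating hormone, are made by neurons of the lateral hypothalamus, and Gal and Trh are abundant there too. Hcrt was at 2.26, −2.95, −3.07 and −3.06 in B6 mice and −3.19, 1.34, −3.31 and −3.14 in BTBR/R mice. Pmch was at 0.83, −4.85, −4.52 and −5.00 in B6 mice and −4.86, 0.87, −4.24 and −5.35 in BTBR/R mice. B6 replicate 1 and BTBR/R replicate 2 thus stood apart on these probes of both genes, each in a different strain. The other Hcrt probe (A_55_P2110316) was detected in BTBR/R replicate 3 alone, at −1.52, and was at −6.26 in B6 replicate 1 and −5.66 in BTBR/R replicate 2, so that these mice did not stand apart on it. The fitted changes of −0.37 (SE 1.58) for Hcrt and −0.01 (SE 1.83) for Pmch carry no strain difference beyond that spread.

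B6 replicate 1 also had the highest signal of Gal (0.49 beside −0.80 to −0.36 in the other mice) and of Trh (1.45 beside −0.26 to 0.93). Thalamic markers were high in the same mice as Hcrt and Pmch. The mean of 4 thalamic markers was 1.23 in B6 replicate 1 and 0.60 in BTBR/R replicate 2, and −0.53 to −0.23 in the other 6 mice. Oxt, the oxytocin precursor of the hypothalamus, was at 3.45 in B6 replicate 1, at 0.08 in BTBR/R replicate 2 and at −2.46 to 0.62 in the other mice. The mean of 6 hypothalamic markers was −1.59 in B6 replicate 1, −2.55 in BTBR/R replicate 2 and −3.49 to −2.45 in the other mice, so that BTBR/R replicate 2 lay within the range of the other mice for both. The part of these regions in the peptide signals was not tested. With both arrays left out, a setting added after the data were seen, the change of Hcrt was −0.19 (adjusted p = 0.11) and that of Pmch −0.03 (adjusted p = 0.95), and 15 of the 44 genes passed the adjusted p.

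**Figure D3:**
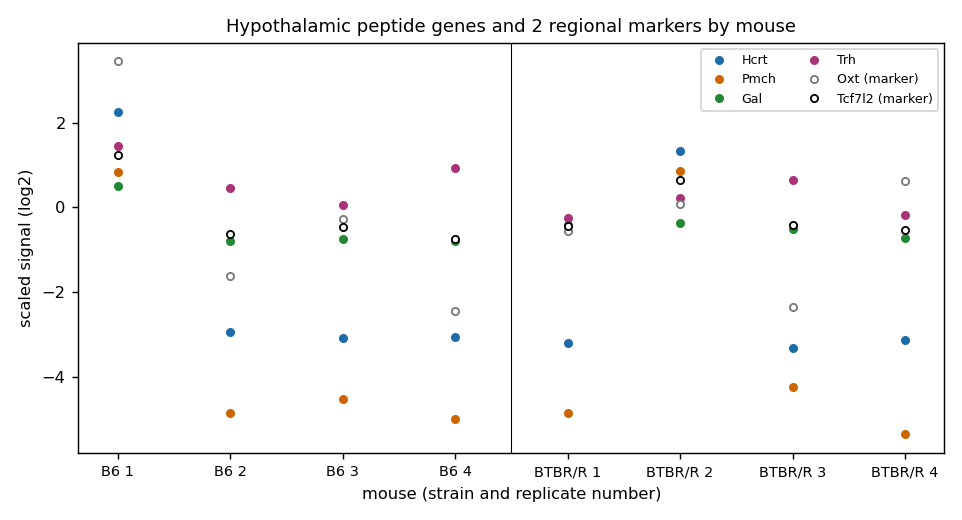
Scaled signal (y axis, log2) of 4 peptide precursors (filled points) and 2 regional markers (open points) in each mouse (x axis). Hcrt and Pmch are high in B6 replicate 1 (2.26 and 0.83) and BTBR/R replicate 2 (1.34 and 0.87) and at most −2.95 in the other 6 mice.

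Crhbp, a secreted protein that binds corticotropin-releasing hormone and limits its action, was higher in BTBR/R mice. Its signals were −0.10, 0.07, 0.03 and 0.13 in B6 mice and 0.44, 0.27, 0.39 and 0.44 in BTBR/R mice. The strains did not overlap, with a change of 0.35 (SE 0.07, adjusted p = 0.0044). The hormone itself, Crh, changed by −0.16 (SE 0.09, adjusted p = 0.22) and its receptor Crhr1 by 0.06 (SE 0.06, adjusted p = 0.46).

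Granins fill the dense-core vesicles and help to sort peptides into them. Scg3, secretogranin III, which binds chromogranin A and vesicle cholesterol, was lower in BTBR/R mice, and the other 4 granins did not pass the test. For Scg3 the B6 mice lay at 4.47, 4.53, 4.51 and 4.54 and the BTBR/R mice at 4.17, 4.24, 4.20 and 4.18. With no overlap and SDs of 0.03 in each strain, the change was −0.31 (SE 0.04, adjusted p = 0.00069), or 1.24-fold lower. Under spike-in scaling the change of Scg3 was −0.20 (adjusted p = 0.042). Scg2, Chgb and Vgf changed by −0.06 to 0.02, and Chga by 0.14 (SE 0.06, adjusted p = 0.076).

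Many peptide and granin genes are known to respond to neuronal activity, so immediate early genes were measured beside them. In these mice, 9 of 12 immediate early genes passed the adjusted p, all of these higher in BTBR/R mice. Of all 18850 genes detected on all 8 arrays, 28.4% passed and 13.9% were higher. The mean scaled signal of the 12 was 0.68 to 1.98 in B6 mice and 2.44 to 2.70 in BTBR/R mice. The part of activity in the peptide signals was not tested.

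Pcsk2, the prohormone convertase that cuts precursors at basic residues, changed by 0.05 (SE 0.06, adjusted p = 0.58), and by −0.07 on its other detected probe. Pam, the amidating enzyme that acts after it, had 6 probes, of which 4 were detected on all 8 arrays, and these moved in different directions. Their sequences are printed because the direction of Pam depends on which stretch was measured. In order along the minus strand of chromosome 1 (mm9), A_55_P2402781 lies at chr1:99950569-99950628, A_55_P2733797 at chr1:99722492-99722551, A_52_P546610 at chr1:99718412-99718471 and A_55_P1969156 at chr1:99718052-99718111. A_55_P2733797 and A_55_P1969156 were designed on the same RefSeq transcript and start at its bases 3016 and 3662, whereas the other probes were designed on other transcript records. Only the first 30 bases of A_55_P2402781 and A_55_P1969156 are shown. The bases of A_55_P1969156 after these are runs of G and T only.
Pam probe A_55_P2402781: ggtattttaaatcagactaatcaaagggct
Pam probe A_55_P2733797: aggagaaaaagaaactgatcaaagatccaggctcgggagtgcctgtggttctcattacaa
Pam probe A_52_P546610: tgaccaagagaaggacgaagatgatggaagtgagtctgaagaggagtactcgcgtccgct
Pam probe A_55_P1969156: gtttagctcatttacatttggagacccttt

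On A_55_P1969156 the B6 mice were at −0.55, −0.40, −0.46 and −0.55 and the BTBR/R mice at 1.45, 1.68, 1.40 and 1.61. All BTBR/R mice were far above all B6 mice, with a change of 2.03 (SE 0.08, adjusted p = 5.81e-06), or 4.07-fold. A_52_P546610, next to it, went the same way, from −2.73, −2.51, −2.64 and −2.72 to −1.05, −0.89, −1.17 and −0.78, a change of 1.68 (SE 0.10, adjusted p = 2.76e-05).

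On A_55_P2733797 the order of the strains was turned. The B6 mice were at −0.07, −0.01, 0.04 and 0.01 and the BTBR/R mice at −0.62, −0.34, −0.49 and −0.57, a change of −0.50 (SE 0.07, adjusted p = 0.00086). A_55_P2402781, at the far end, was at −1.93 to −1.86 in B6 mice and −1.78 to −1.51 in BTBR/R mice, a change of 0.20 (SE 0.07, adjusted p = 0.054). Of the other probes, A_52_P494289 was detected in all B6 mice and in no BTBR/R mouse, but at signals (−4.87 to −4.22) below the BTBR/R detection limits, and A_55_P2714359 was detected on no array. Averaged over its detected probes, Pam was not called at 2-fold. The Pam gene overlaps 3 long non-coding RNA genes, a pseudogene and a small nuclear RNA gene in the RefSeq annotation (GRCm38.p6). What sets the probes apart was not tested.

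**Figure D4:**
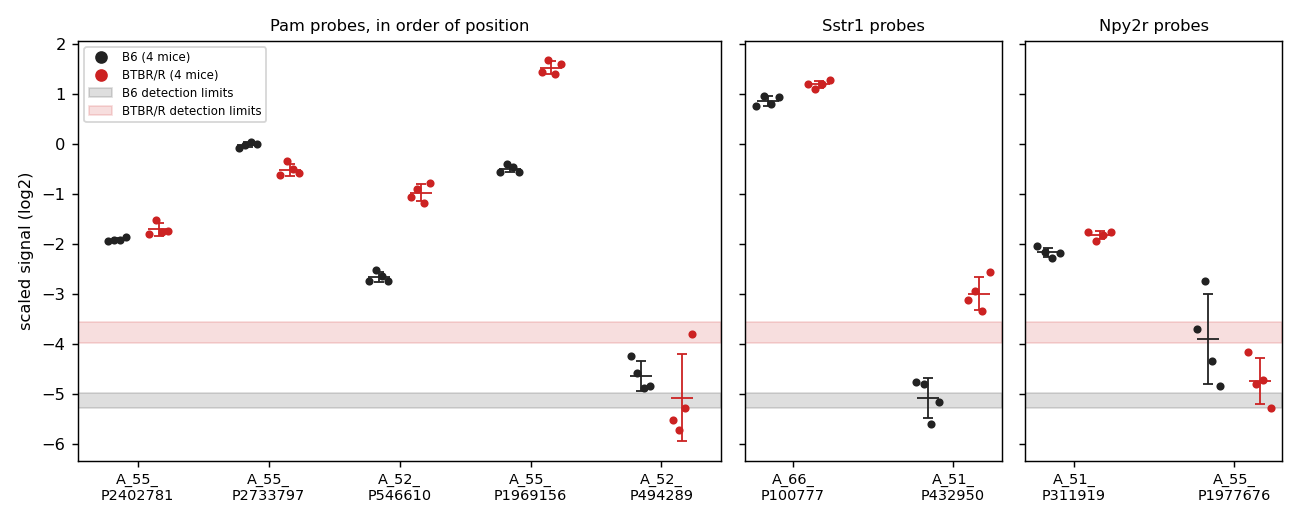
Scaled signal (y axis, log2) of each mouse on the probes of Pam detected on every array of a strain, and on those of Sstr1 and Npy2r (x axis, probe names), with mean ± SD and shaded bands for the range of detection limits of each strain. Adjacent Pam probes differ in direction, with changes of −0.50 on A_55_P2733797 and 1.68 and 2.03 on A_52_P546610 and A_55_P1969156.

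Of the receptors beyond those for somatostatin, Vipr1, Npy2r, Tacr1 and Cckbr were higher in BTBR/R mice and Oprk1 was lower. Vipr1, a receptor for VIP and PACAP, was at 2.26, 2.40, 2.42 and 2.59 in B6 mice and 2.77, 2.86, 2.94 and 2.98 in BTBR/R mice. The strains did not overlap, with a change of 0.47 (SE 0.08, adjusted p = 0.0032), or 1.39-fold. The change was 0.01 (SE 0.16, adjusted p = 0.95) on its other probe, which was detected in 4 B6 mice and 2 BTBR/R mice. Tacr1, the substance P receptor, was at −2.32, −2.29, −2.40 and −2.45 in B6 mice and −1.95, −1.97, −2.07 and −2.10 in BTBR/R mice, again without overlap, a change of 0.34 (SE 0.06, adjusted p = 0.0029). Under normexp the change of Tacr1 was 0.22.

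Npy2r, the mostly presynaptic receptor for neuropeptide Y, changed by 0.35 (SE 0.07, adjusted p = 0.0060), from −2.04, −2.15, −2.28 and −2.18 in B6 mice to −1.76, −1.94, −1.81 and −1.75 in BTBR/R mice. Its other probe was detected in the 4 B6 mice (−4.83 to −2.73) and in no BTBR/R mouse (−5.26 to −4.16), with ranges that overlapped and an adjusted p of 0.20. The other neuropeptide Y receptors, Npy1r and Npy5r, changed by −0.14 (adjusted p = 0.21) and −0.24 (adjusted p = 0.13).

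Cckbr, the main cholecystokinin receptor of the brain, was at 2.24, 2.30, 2.33 and 2.57 in B6 mice and 2.59, 2.58, 2.60 and 2.81 in BTBR/R mice. Only a narrow gap separated the strains, with a change of 0.29 (SE 0.09, adjusted p = 0.040), and its other probes, at 0.23 and 0.39, did not pass the adjusted p. Oprk1, the dynorphin receptor, was at 0.06, 0.04, −0.01 and 0.02 in B6 mice and −0.03, −0.47, −0.30 and −0.24 in BTBR/R mice, a change of −0.29 (SE 0.09, adjusted p = 0.043). Its other probe changed by −0.22 (SE 0.07, adjusted p = 0.048). Both genes lost the adjusted p in many of the other settings, 12 of 21 for Cckbr and 13 of 21 for Oprk1, whose change was −0.18 under spike-in scaling. Oprd1 and Oprl1, receptors for enkephalin and nociceptin, changed by −0.12 (adjusted p = 0.50) and 0.15 (adjusted p = 0.19). Galr1, a galanin receptor, was detected in 1 B6 mouse and in no BTBR/R mouse and has no measured change.

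Ligands and receptors were compared side by side with no test of their relation. For VIP, the precursor changed by −0.23, the receptor Vipr1 by 0.47 (0.01 on its other probe) and the receptor Vipr2, not among the 44 genes, by 0.59 (SE 0.59, adjusted p = 0.47). Cortistatin and somatostatin precursors changed by −1.07 and 0.06, and Sstr1 to Sstr4 by 0.33, 0.72, −0.13 and −0.04, with Sstr5 at 0.08. For dynorphin, the precursor changed by −0.02 and the receptor Oprk1 by −0.29. In the tachykinins the precursors Tac1 and Tac2 changed by −0.0025 and 0.33, and the receptor Tacr1 by 0.34. The other tachykinin receptors, not among the 44 genes, were Tacr2, which changed by −0.10 (SE 0.05, adjusted p = 0.15), and the neurokinin B receptor Tacr3, detected in 4 B6 mice and 1 BTBR/R mouse, with an adjusted p of 0.92.

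A further 70 genes of the peptide system, listed by role with the same earlier results known, were measured in the same fit, and in 57 of them every array of 1 strain or of both detected the probe. Among the 57, 4 were called at 2-fold (1 higher, 3 lower), beside 4.39% of all 22711 genes detected in that way (1.07% higher and 3.32% lower). At the adjusted p alone 19 of the 57 passed (9 higher, 10 lower), beside 29.2% of all such genes (12.1% higher and 17.1% lower). Over all 70 genes, 9 were called at 2-fold and 24 passed the adjusted p (14 higher, 10 lower). Among the 6 called as higher, 4 were detected on no array. Of all 56605 probes, detected or not, 12697 were called at 2-fold and 22235 passed the adjusted p (15685 higher, 6550 lower). The split of the 70 genes depended on the setting. It was 21 higher and 7 lower under spike-in scaling. Normexp gave 9 and 11, and a floor at the detection limit 6 and 10. Over all probes these settings gave 18642 and 3694, 5842 and 6342, and 3198 and 3894.

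The 4 detected genes called at 2-fold were the peptide precursor Kiss1, the receptors Hcrtr1 and Prokr2, and the convertase chaperone Scg5. Kiss1, the kisspeptin precursor known from hypothalamic control of reproduction, was detected on both of its probes in every B6 mouse and in no BTBR/R mouse. On the probe with more signal the B6 mice were at −1.45, −1.06, −0.93 and −1.04, and the BTBR/R mice, not well above background, at −4.03, −4.12, −4.75 and −4.37. In BTBR/R mice Kiss1 was lower by at least 6.02-fold (adjusted p = 2.76e-05), a bound set against the detection limits of the BTBR/R arrays, and at least 2.73-fold lower on its other probe. In the RefSeq annotation (GRCm38.p6) Kiss1 overlaps Golt1a.

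Hcrtr1, a receptor for the orexins made from Hcrt, was detected on all 8 arrays, at −0.88, −0.96, −1.11 and −0.92 in B6 mice and −2.75, −2.80, −2.96 and −3.08 in BTBR/R mice. The strains were far apart, with a change of −1.93 (SE 0.09, adjusted p = 1.46e-05), or 3.80-fold lower. On its other probe, detected in the B6 mice alone, Hcrtr1 was at least 1.77-fold lower. The Hcrtr1 signal was low in BTBR/R replicate 2 (−2.80) as in the other BTBR/R mice, and at −0.88 in B6 replicate 1, so that the mice with high Hcrt did not stand apart for this receptor.

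Prokr2, a prokineticin receptor, was at −3.04, −3.35, −3.29 and −2.93 in B6 mice and was not well above background in BTBR/R mice (−4.54, −4.44, −4.28 and −4.51), which makes it at least 1.47-fold lower (adjusted p = 5.04e-05). Its 2-fold call rested on signals below the BTBR/R detection limits, since the bound was under 2-fold and the change was −0.48 under normexp and −0.40 with a floor at the detection limit. Scg5, the chaperone 7B2 that Pcsk2 needs to become active, was at 5.08, 5.04, 4.99 and 5.18 in B6 mice and 6.21, 6.19, 6.29 and 6.32 in BTBR/R mice. Its change was 1.18 (SE 0.06, adjusted p = 1.95e-05), or 2.26-fold, while Pcsk2 itself changed by 0.05. Smaller changes past the adjusted p included Pcsk1, the other neuronal prohormone convertase, at 0.48 (adjusted p = 0.00041), and Cpe, the carboxypeptidase that trims the cut peptides, at −0.19 (adjusted p = 0.015).

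**Figure D5:**
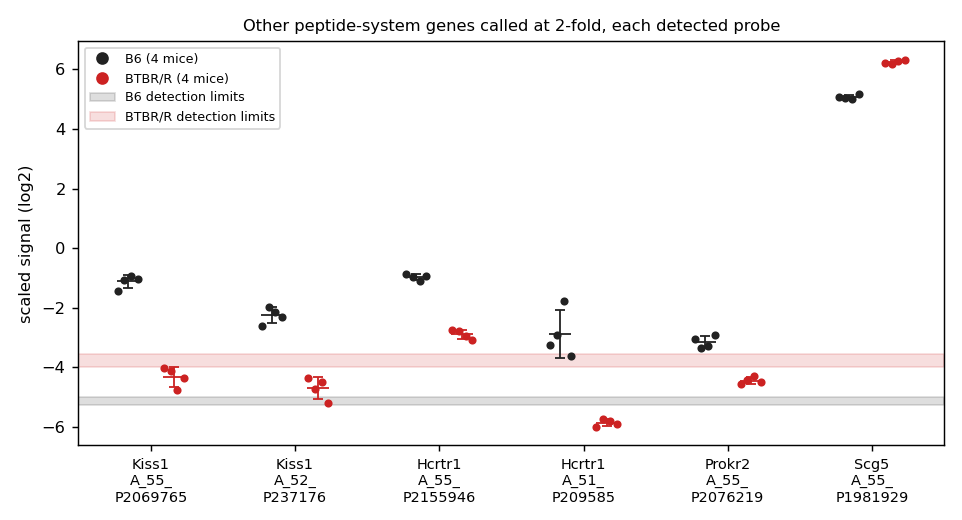
Scaled signal (y axis, log2) of each mouse on the detected probes of the 4 further genes called at 2-fold (x axis, gene and probe), with mean ± SD and shaded bands for the detection limits of each strain. Kiss1 and Prokr2 lie below the BTBR/R detection limits in BTBR/R mice, while Hcrtr1 is measured in both strains on its probe A_55_P2155946 and Scg5 is higher in all BTBR/R mice.

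The cAMP response element TGACGTCA, bound by CREB and first described in the somatostatin gene, was searched for in the promoters of these genes. A promoter here is the stretch from 250 bases before to 50 bases after the start of a gene in RefSeq (GRCm38.p6), and TGACGTCA reads the same on both strands. Sequences were matched for 36 of the 44 genes, of which 5 held the element (13.9%), beside 549 of 27025 genes with such a promoter (2.03%), or 588 of 32851 single promoters (1.79%). The 5 stretches are printed with the element in capitals since 2 of these genes were higher in BTBR/R mice and 3 did not pass the test. The stretches are Scg2 at chr1:79440066-79440115 (minus strand), Chgb at chr2:132781549-132781598 (plus), Sstr2 at chr11:113619248-113619297 (plus), Cartpt at chr13:99900767-99900816 (minus) and Sst at chr16:23890864-23890913 (minus).
Sst promoter: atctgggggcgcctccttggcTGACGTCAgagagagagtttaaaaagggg
Sstr2 promoter: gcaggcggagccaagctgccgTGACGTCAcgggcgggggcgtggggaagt
Cartpt promoter: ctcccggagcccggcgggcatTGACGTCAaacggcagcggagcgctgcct
Scg2 promoter: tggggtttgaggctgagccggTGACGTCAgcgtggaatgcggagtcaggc
Chgb promoter: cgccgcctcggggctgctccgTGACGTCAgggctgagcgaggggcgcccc
The element begins 48 bases before the start of Sst, 58 before that of Sstr2, 68 before Scg2, 72 before Chgb and 112 before Cartpt. Of these genes Sstr2 (0.72) and Cartpt (0.55) were higher in BTBR/R mice, and Sst (0.06), Scg2 (0.02) and Chgb (−0.02) did not pass the test. The match is a description of sequence and no measure of binding.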

How the data were processed

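RNA of 4 B6 and 4 BTBR/R mice was measured on 8 one-color arrays, grouped by the strain in the labels. The authors deposited the spot intensities of Agilent Feature Extraction (version 10.7.3.1, per the labels), of which the background-subtracted, detrended processed signal was used. They also deposited log2 values, and each array's column differed from its log2 processed signals by 1 constant (to within 0.01 in 99.97% of probes or more).

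Control spots and 36 to 52 outlying spots per array were left out, and repeated spots were averaged, leaving 56605 probes. Log2 processed signals minus the array's 75th percentile were compared with limma 3.58.1 (lmFit, eBayes, R 4.3.3) over all probes, with Benjamini-Hochberg adjustment. Calls needed an adjusted p below 0.05 and, where stated, a 2-fold change. Other steps used Python 3.11.15, pandas 2.3.3 and numpy 2.4.6. The fit was tested on simulated data. No probe was saturated. The number of arrays limits the precision.

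The genes, lists and tests were chosen with earlier results of these data known. Genes named with full values passed the adjusted p with a change of at least 1.3-fold, had detected probes differing by over 1 on the log2 scale, or were among the 10 with the highest signal, and genes past the adjusted p were added. Adcyap1, Pnoc, Hcrt and Pmch were also given by mouse, outside these rules. Where a probe was well above background on all arrays of only 1 strain, the fold is a bound: the brighter strain's mean against the higher of the dim probe's signal and the lowest detected signal of each array. Probes keep the names and the mm9 positions that the array files give, and promoters are from RefSeq (GRCm38.p6). Replicate numbers did not pair the mice.

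Alternatives were quantile normalization, normexp with an offset of 50 as the background correction, the authors' log2 values, scaling to 7 spike-in probes, to the median or to the detected probes' 75th percentile, 2 filters on dim probes, a floor at the detection limit, limma's trend and robust options, the methods' t-test, a block for replicate number, a mean over the probes detected on all 8 arrays (called by their median adjusted p), leaving out each mouse in turn and, added later, leaving out B6 replicate 1 and BTBR/R replicate 2 together.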

Additional observations from a re-analysis of the deposited data

Results flagged for a closer look

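In 10 of 108 groups of 4 mice the highest or lowest mouse lay far from the other 3 for its group, and chance alone gives about 1 in 20. Of these, 6 were B6 replicate 1. Its scaled signal was 2.26 for Hcrt (−3.07 to −2.95 in the other B6 mice), 0.83 for Pmch (−5.00 to −4.52), 0.49 for Gal (−0.80 to −0.76), −0.60 for Grp (−0.26 to −0.22), 7.07 for Cck (7.19 to 7.21) and 6.26 for Chgb (6.44 to 6.46). BTBR/R replicate 2 was at 1.34 for Hcrt (−3.31 to −3.14 in the other BTBR/R mice) and at −1.51 on the Pam probe A_55_P2402781 (−1.78 to −1.74). BTBR/R replicate 1, the mouse of 6 months, was at −0.19 for Adcyap1 (0.01 to 0.03), and BTBR/R replicate 4 at 2.81 for Cckbr (2.58 to 2.60).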

How the results depend on the processing

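Of the 16 genes past the adjusted p, 12 stayed past it in the 21 other settings with a value per gene, and Vip, Tac2, Cckbr and Oprk1 did not. The mean over detected probes shared 15 of the 16, with Cckbr lost and Adcyap1 gained. No called gene reversed. The number of the 44 genes called at 2-fold fell from 2 to 1 under normexp, spike-in scaling (in both, Cort was short of 2-fold) and the mean over detected probes (Pam was not called). It was 2 without any single mouse, and the number past the adjusted p was then 12 to 16. Of the 70 further genes, 9 were called at 2-fold, and 3 under normexp, 4 under quantile normalization, 4 with probes detected on every array of a strain, 2 with probes detected on all 8 arrays, 3 with a floor at the detection limit and 2 with the mean over detected probes. The 2 filters and that mean drop dim genes by construction, and for the others the cause was not tested. Leaving out a mouse gave 7 to 10. Past the adjusted p were 24, beside 15 with the mean over detected probes and 20 to 26 without a mouse. With B6 replicate 1 and BTBR/R replicate 2 both left out, the counts were 2, 15, 8 and 16. Spike-in scaling moved the median change of probes detected on all 8 arrays from 0.0015 to 0.11.

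Replicate numbers did not pair the mice, since same-numbered mice had correlations of deviations of 0.0028, −0.07, −0.04 and 0.16. With a replicate block the counts were 2 and 14 of the 44 genes and 8 and 22 of the 70. Dim probes limit the comparison, since the detection limits were higher in BTBR/R mice. The p-values measure the spread between these 8 mice only.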
